A study of Mus musculus with 10 samples.

Results

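The transcripts followed here are those of fatty acid oxidation and ketone body production in mouse liver cells: the nuclear receptor PPARA, the proteins that take up, activate and store fatty acids, the carnitine shuttle, the enzymes of β-oxidation in mitochondria and peroxisomes, a ketone body dehydrogenase, and several further PPARA targets. They are a fixed list of 35 gene symbols, matched through Ensembl identifiers, and all 35 were found among the 49585 genes of the count tables. Bulk RNA was sequenced for 10 samples in 5 groups of 2, in a series on liver cancer of a mouse whose Rb family genes are deleted. Per the labels, livers or tumours were digested with enzymes and cells carrying YFP, which marks Cre recombination, were sorted. The libraries used here are 2 whose columns are named Sox9 with a TKO tag, 2 of Sox9-derived organoids and 2 of Ck19-derived organoids. The TKO-tagged columns have no label of their own: by name and number they match the same 2 Sox9-derived samples as the untagged Sox9 columns. The labels call the organoid samples untreated primary liver cells. They give no genotype, strain, age or sex for any sample, no driver for the Cre recombinase and no culture conditions. The series title speaks of a triple knockout of the Rb family, but no label says what the TKO tag of these columns marks or whether the untagged cultures carry the deletion. Sorted Epcam-negative, Epcam-high and Thy1-positive cells, 3 groups with 6 samples, were not analysed here.

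Hepatocytes burn fatty acids in their mitochondria. A fatty acid enters the cell, is bound by a carrier protein, is joined to coenzyme A, crosses the inner mitochondrial membrane as a carnitine ester and is then shortened in repeated cycles, each of which feeds electrons to the respiratory chain and releases acetyl-CoA. Fasting liver turns much of that acetyl-CoA into ketone bodies, and PPARA, activated by fatty acids, is the transcription factor best known for switching on these genes in liver. Very long and branched chains are shortened in peroxisomes first.

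The TKO-tagged pair held little of most biliary markers. A list of 12 of them summed to 509.5 and 1207 CPM (fragments scaled to the library total) in the TKO-tagged libraries, 32271 and 27983 CPM in the Sox9-derived and 15618 and 15401 CPM in the Ck19-derived libraries. By the edgeR test described below, 8 of the 12 were called lower than in the Ck19-derived organoids, where 14.0% of all tested genes were. Over the Sox9-derived organoids 7 were called lower, where 9.02% of all tested genes were. In both comparisons 0 were called higher. Sox9 itself and Onecut1 were estimated above 0 over the Ck19-derived organoids and not called. The 12 include Cftr, at 0 in both TKO-tagged libraries. It passed the count filter through the organoids alone and so had to differ, and calls of such markers are not read as a result. Epcam, a surface protein of bile duct epithelium, stood at 8.99 and 5.61 CPM in the TKO-tagged libraries, against 2669 and 3833 CPM in the Sox9-derived libraries and 2324 and 2101 CPM in the Ck19-derived libraries. The duct keratin Krt19 was at 0.62 and 1.61 CPM in the TKO-tagged libraries and between 1945 and 3120 CPM in the 4 organoid libraries. Albumin (Alb) was at 21740.3 and 13158 CPM in the TKO-tagged libraries and between 1.24 and 20.4 CPM in the organoids. Summed over 16 hepatocyte markers, the TKO-tagged libraries held 66285 and 67389.9 CPM, the Sox9-derived 275 and 627 CPM and the Ck19-derived 262 and 289.7 CPM, where 5 of the 16 were at 0 in both Sox9-derived libraries. The TKO-tagged columns thus carry the name of the Sox9 samples and a hepatocyte-rich profile, and they are described below as libraries in their own right. Markers of other cell types were also higher in the TKO-tagged than in the organoid libraries: 9 myeloid markers summed to 1117 and 895 CPM there, against at most 85.1 CPM in any organoid library, 8 endothelial markers to 143 and 95.1 CPM against at most 0.91 CPM, and 11 mesenchymal markers to 411.5 and 236 CPM against at most 33.6 CPM. Lymphoid markers summed to 25.1 and 16.9 CPM in the TKO-tagged pair, with Ms4a1 at 0 in both, and 6 erythroid markers to 301 and 2538 CPM. The adipocyte list summed to 287 and 251 CPM, all but a trace of it Fabp4, with Adipoq, Lep, Cfd and Retn at 0 in both.

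**Figure D1:**
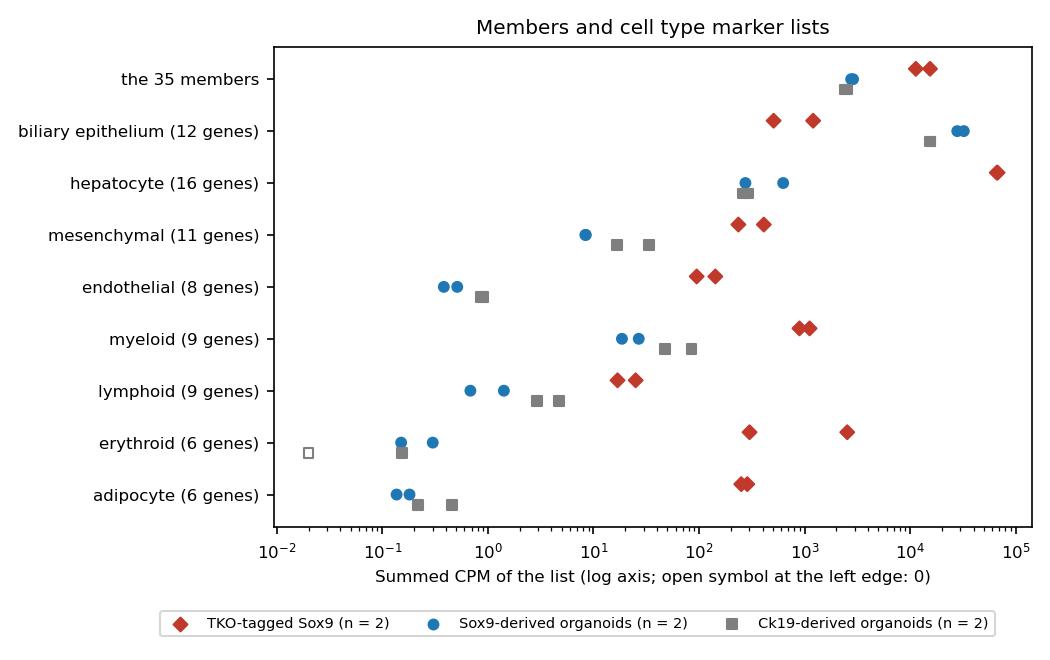
Summed CPM (log axis) of the 35 members and of 8 cell type marker lists in each of 6 libraries; red diamonds are TKO-tagged Sox9, blue circles Sox9-derived and grey squares Ck19-derived libraries. The member sum is 15445 and 11333 CPM in the TKO-tagged libraries and at most 2882 CPM in an organoid library, and the hepatocyte and biliary sums separate the same libraries in opposite directions.

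Sequencing depth ran from 31883180 to 59664959 fragments assigned to genes, so 3 fragments, used as the floor for a gene at 0, equal 0.0503 to 0.0941 CPM. Low mapping quality removed 33.2% to 40.9% of fragments before counting. Sex differed between the groups: the X-inactivation RNA Xist was at 0.04 and 0.02 CPM in the TKO-tagged, 0.03 and 0.03 CPM in the Sox9-derived and 60.3 and 57.1 CPM in the Ck19-derived libraries, with the Y-linked Eif2s3y in the opposite order. Any difference from the Ck19-derived organoids therefore cannot be told apart from sex, nor can a difference of the TKO-tagged libraries from either organoid pair be told apart from their separate count table. Of the deleted gene family, Rb1 stood at 4.50 and 5.40 CPM in the TKO-tagged, 14.5 and 12.6 CPM in the Sox9-derived and 21.0 and 21.8 CPM in the Ck19-derived libraries, Rbl1 between 0.69 and 4.05 CPM and Rbl2 between 1.73 and 8.77 CPM. Sums over whole genes do not show whether exons were deleted.

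Together the 35 members made up 1.54% and 1.13% of all fragments in the TKO-tagged libraries, 0.277% and 0.288% in the Sox9-derived and 0.242% and 0.251% in the Ck19-derived organoids. Fabp1 alone made up 0.488% and 0.271% of all fragments in the TKO-tagged libraries. All 35 were detected in both TKO-tagged libraries, 31 and 32 in the Sox9-derived and 34 in each of the Ck19-derived libraries. Over the 29 members detected in all 6 libraries, the median log2 CPM was 7.02 and 6.99 in the TKO-tagged, 6.09 and 6.31 in the Sox9-derived and 5.94 and 6.02 in the Ck19-derived libraries. In bulk RNA, fewer cells of a type and less RNA per cell cannot be told apart.

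The members fell into a broad common set and a short list of genes that the organoids hardly used. Of the 35, 27 were higher in both TKO-tagged libraries than in any of the 4 organoid libraries and 0 were lower than in all of them, where 13.3% of 23584 genes with at least 10 fragments in all were higher in this way. The remaining 8 overlapped: Acot1, Acot2, Cpt2, Acadsb, Eci2, Acaa1a, Pex11a and Vnn1. Under 1 CPM in every organoid library were Ppara, Cd36, Slc27a2, Slc27a5, Fabp1 and Pdk4, none of them an enzyme of the oxidation cycle.

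**Figure D2:**
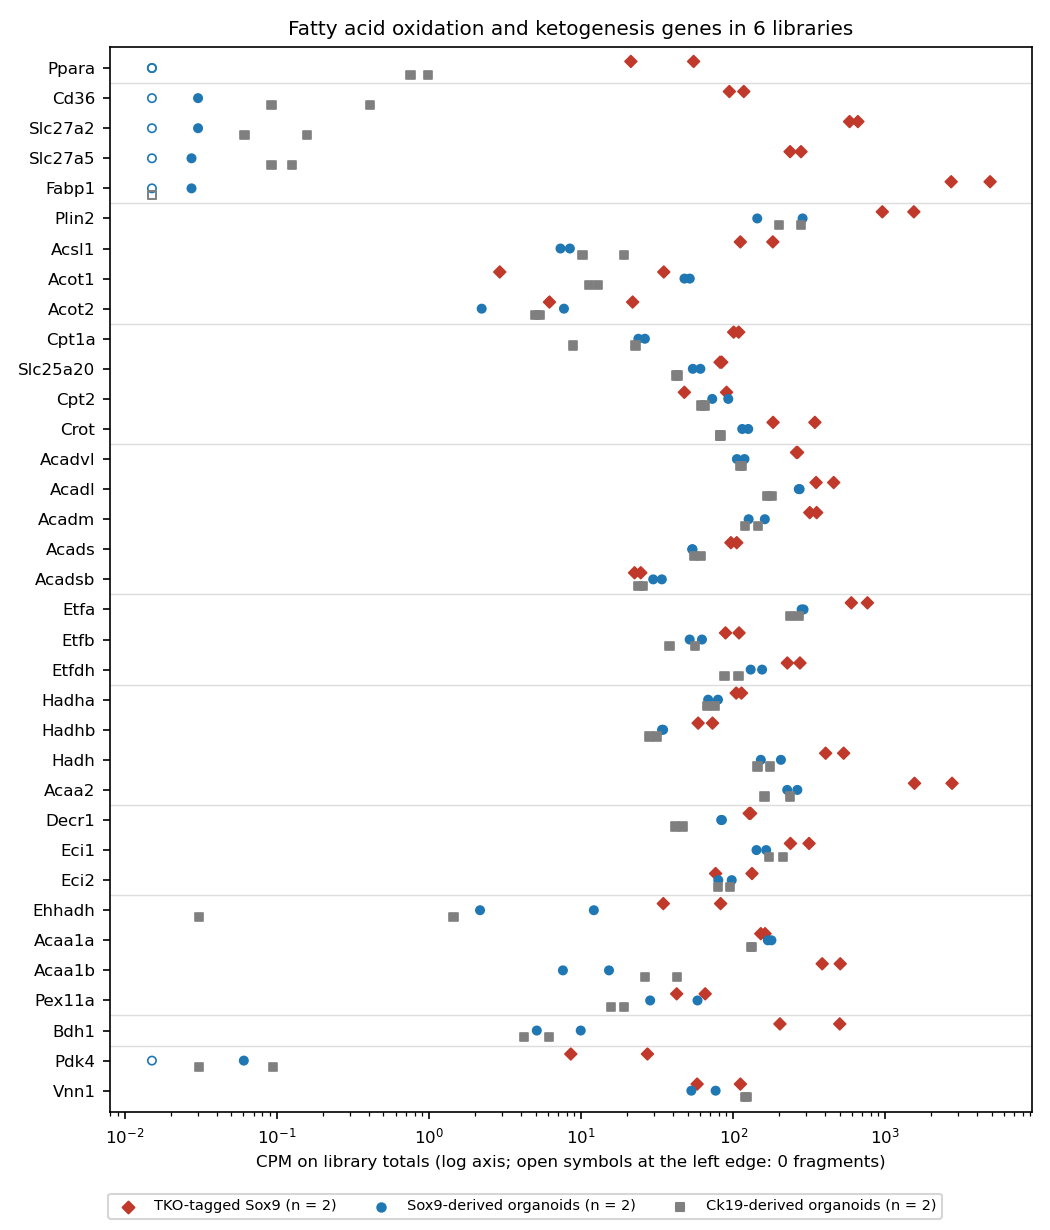
CPM on library totals (log axis) of each of the 35 members in 6 libraries, grouped by role with grey lines; red diamonds are TKO-tagged Sox9, blue circles Sox9-derived and grey squares Ck19-derived libraries, and open symbols mark 0 fragments. The uptake genes and Ppara lie near or below 1 CPM in all 4 organoid libraries and between 21.2 and 4884 CPM in the TKO-tagged pair, while most cycle enzymes lie between 20 and 300 CPM in the organoids.

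With edgeR's quasi-likelihood test and Benjamini-Hochberg adjustment over all genes, 29 of 35 members were higher in the TKO-tagged libraries than in the Ck19-derived organoids and 0 were lower, where 15.0% of 17938 tested genes were called higher and 14.0% lower. The median over all tested genes was a log2 fold change of −0.07. Against the Sox9-derived organoids, 26 of 35 were higher and 0 lower, where 13.3% of 17333 tested genes were called higher and 9.02% lower. The median of all genes was −0.01. These comparisons share the TKO-tagged libraries. In each of them 6 members passed the count filter only through the TKO-tagged pair and so had to differ, and their calls are not read as a result: Cd36, Fabp1, Pdk4, Slc27a2 and Slc27a5 in both, Ehhadh against the Ck19-derived and Ppara against the Sox9-derived organoids. Of the other 29 members, 23 were called higher over the Ck19-derived organoids, with a median log2 fold change of 2.10, and 20 over the Sox9-derived, with a median of 1.71. Scaling by library totals alone moved the median of all genes to −0.82 against Ck19-derived and −0.81 against Sox9-derived organoids, and the calls over all genes to 1960 higher and 5158 lower, and 1797 higher and 4069 lower, in place of 2683 and 2507, and 2313 and 1563. On that scale 20 and 12 of those 29 members were called higher and 0 lower, with medians of 1.34 and 0.91. The calls lost were those of Acaa1a, Eci1 and Hadha over the Ck19-derived organoids, and of Acadl, Crot, Decr1, Eci1, Etfb, Etfdh, Hadha and Slc25a20 over the Sox9-derived. Leaving out 1 library gave medians over all 35 members of 2.13 to 2.28 over Ck19-derived and 1.84 to 2.06 over Sox9-derived organoids. These medians include the 6 members set aside above. Calls, of members and of all genes, were fewest in the fits without an organoid library, so they depend on having both libraries of that pair. No source states that replicate libraries are independent cultures or mice, so every p-value measures just the spread between these libraries, which may be technical.

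**Figure D3:**
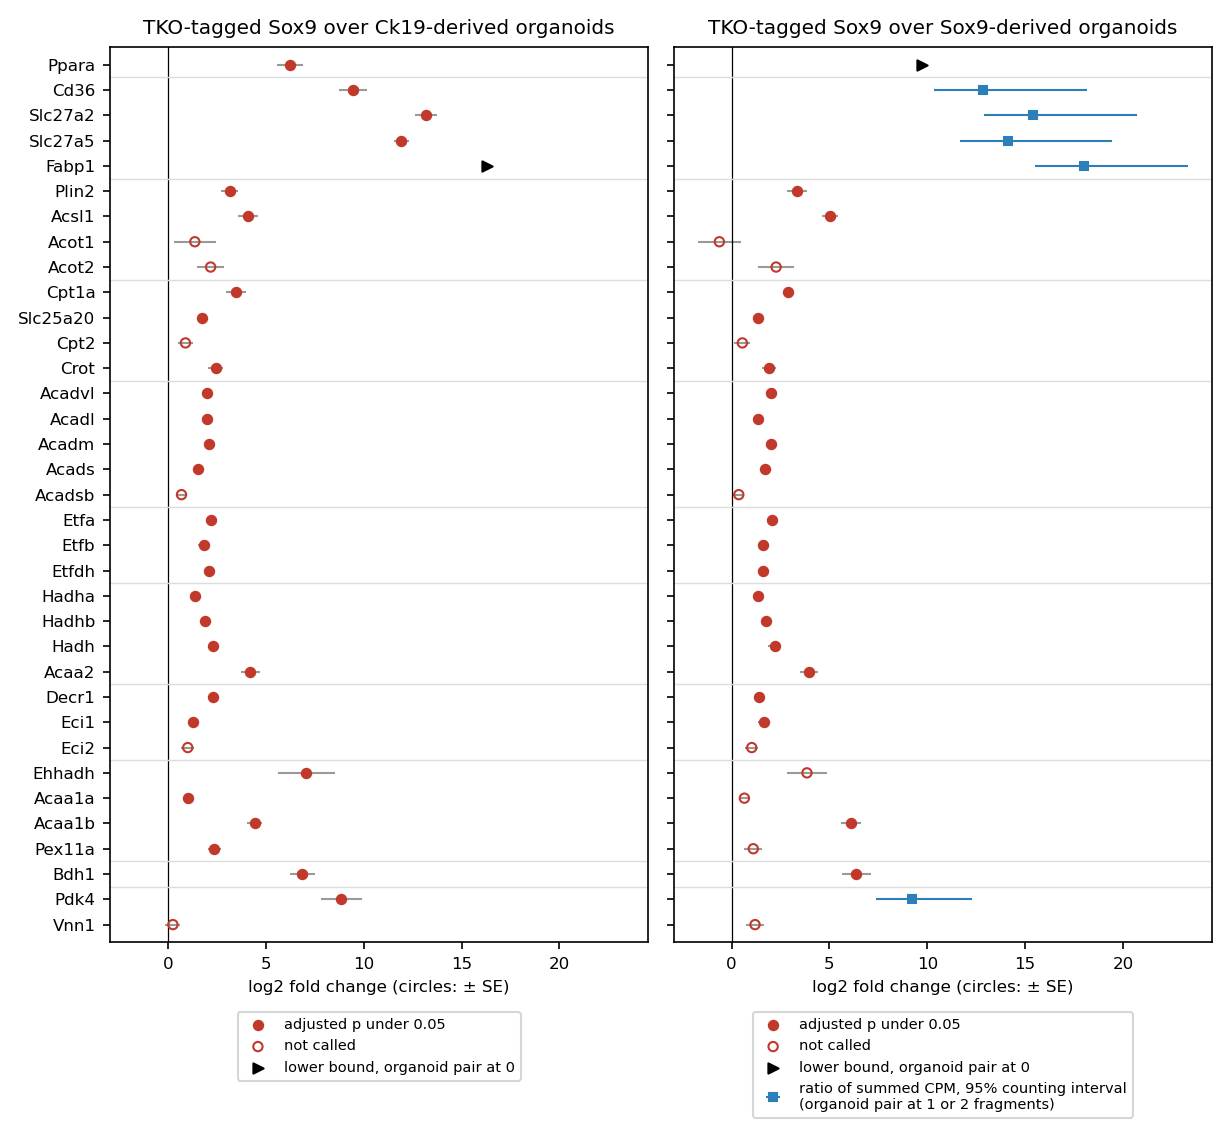
log2 fold change of each member in the TKO-tagged Sox9 libraries over the Ck19-derived (left) and the Sox9-derived organoids (right); circles are edgeR estimates with standard errors, filled where the adjusted p was under 0.05, triangles are lower bounds where the organoid pair was at 0, and squares are ratios with counting intervals. All 35 estimates on the left and 34 on the right are above 0, and the uptake and binding genes lie farthest to the right in both. In each panel 6 members, among them all the uptake and binding genes, passed the count filter only through the TKO-tagged pair and so had to differ.

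Ppara itself (ENSMUSG00000022383, chromosome 15, 85734983 to 85802819, GRCm38, plus strand), the receptor that fatty acids activate, was at 54.8 and 21.2 CPM in the TKO-tagged libraries, at 0 in both Sox9-derived libraries and at 0.75 and 0.98 CPM in the Ck19-derived libraries. It was thus low or at 0 in all organoids and 2.59 times as high in one TKO-tagged library as in the other. The TKO-tagged pair was higher than the Ck19-derived organoids by a log2 fold change of 6.23 (SE 0.68, edgeR adjusted p = 0.00516). Against the Sox9-derived pair it was at least 861-fold higher, taking 3 fragments over that pair as the floor.

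The uptake and binding genes separated the libraries most widely. Fabp1 (chromosome 6, 71199827 to 71205023, GRCm38, plus strand), the liver fatty acid binding protein, was at 4884 and 2709 CPM in the TKO-tagged libraries, against a single fragment in the Sox9-derived pair and none in the Ck19-derived pair. It was at least 80468-fold higher than in the Ck19-derived organoids, with the floor of 3 fragments over the pair. Slc27a2, a very long chain acyl-CoA synthetase and fatty acid transport protein, was at 660 and 582 CPM in the TKO-tagged libraries, at 0 and 0.03 CPM in the Sox9-derived and at 0.16 and 0.06 CPM in the Ck19-derived libraries. Slc27a5, the synthetase that joins bile acids to coenzyme A, was at 236 and 279 CPM in the TKO-tagged, 0.03 and 0 CPM in the Sox9-derived and 0.13 and 0.09 CPM in the Ck19-derived libraries. Cd36, a fatty acid translocase also made by macrophages and endothelium, was at 117 and 94.2 CPM in the TKO-tagged, 0 and 0.03 CPM in the Sox9-derived and 0.41 and 0.09 CPM in the Ck19-derived libraries. No library of the TKO-tagged pair came near an organoid library in any of these genes. All 4 passed the count filter through the TKO-tagged libraries alone, so their levels are given with no test. With 1 fragment over the Sox9-derived pair, the ratio of summed CPM was 7325 for Cd36, with a 95% counting interval of 1315 to 289361. The myeloid and endothelial markers given above moved with Cd36, and their part in its level was not tested.

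Promoter windows of RefSeq (GRCm38.p6, 250 bases before to 50 after the transcription start) were found for 31 of the 35 members, 33 windows in all. They were searched on both strands for the hexamer AGGTCA and for the element that PPARA binds as a heterodimer with RXR, which is AGGTCA, any base, AGGTCA. The hexamer was in 7 of 33 member windows (21.2%) and in 16.3% of 32851 windows of all genes. The exact element was in 0 of 33 member windows and in 0.0396% of all windows. Within 1 mismatch of its 12 fixed bases lay 1 member window, that of Fabp1, and 0.554% of all windows. Within 2 mismatches lay 5 member windows (15.2%) and 3.86% of all windows. These 5 are printed below because they hold the closest matches among genes of this PPARA-regulated pathway, and Eci1 as a member well expressed in all organoid libraries whose window holds no such match. Each sequence is 5′ to 3′ on the gene's own strand, and capitals mark the best match to the element, which reads on the opposite strand in Fabp1, Cd36, Plin2 and Etfa. The element contains the hexamer, so their counts overlap.
Fabp1: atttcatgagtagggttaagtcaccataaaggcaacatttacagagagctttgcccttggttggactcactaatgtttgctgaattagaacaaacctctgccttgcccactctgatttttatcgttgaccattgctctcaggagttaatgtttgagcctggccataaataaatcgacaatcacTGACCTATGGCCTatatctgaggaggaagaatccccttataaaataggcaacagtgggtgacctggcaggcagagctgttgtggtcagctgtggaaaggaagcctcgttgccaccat
Cd36: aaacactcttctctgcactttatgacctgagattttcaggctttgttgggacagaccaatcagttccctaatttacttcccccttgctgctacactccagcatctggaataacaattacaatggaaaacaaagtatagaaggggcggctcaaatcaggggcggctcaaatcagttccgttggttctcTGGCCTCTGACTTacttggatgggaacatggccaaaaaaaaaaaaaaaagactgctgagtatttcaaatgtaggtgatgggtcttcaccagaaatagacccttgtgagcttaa
Plin2: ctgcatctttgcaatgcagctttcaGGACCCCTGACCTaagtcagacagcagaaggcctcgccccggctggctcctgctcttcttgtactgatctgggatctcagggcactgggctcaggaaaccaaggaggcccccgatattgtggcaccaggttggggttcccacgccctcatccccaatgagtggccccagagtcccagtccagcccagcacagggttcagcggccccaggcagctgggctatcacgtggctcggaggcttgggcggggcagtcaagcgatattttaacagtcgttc
Etfa: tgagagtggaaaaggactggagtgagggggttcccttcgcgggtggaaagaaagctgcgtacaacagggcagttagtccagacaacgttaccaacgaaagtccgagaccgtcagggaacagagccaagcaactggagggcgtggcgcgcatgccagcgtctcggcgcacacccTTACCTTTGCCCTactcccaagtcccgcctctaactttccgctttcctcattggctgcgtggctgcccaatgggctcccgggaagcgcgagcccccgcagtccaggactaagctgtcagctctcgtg
Slc25a20: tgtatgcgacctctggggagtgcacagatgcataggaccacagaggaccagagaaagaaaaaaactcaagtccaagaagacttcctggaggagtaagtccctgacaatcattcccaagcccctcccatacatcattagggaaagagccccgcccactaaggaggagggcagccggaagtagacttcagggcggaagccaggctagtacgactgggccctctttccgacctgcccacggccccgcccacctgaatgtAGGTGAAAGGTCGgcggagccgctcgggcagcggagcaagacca
Eci1: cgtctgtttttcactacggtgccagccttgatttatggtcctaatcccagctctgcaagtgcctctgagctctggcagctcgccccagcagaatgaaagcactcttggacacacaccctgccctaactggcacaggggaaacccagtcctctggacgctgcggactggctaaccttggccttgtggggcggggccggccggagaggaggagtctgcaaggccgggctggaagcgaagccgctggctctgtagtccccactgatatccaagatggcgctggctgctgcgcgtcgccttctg
The windows are chr6:71199629-71199928 (plus strand) for Fabp1, chr5:17835847-17836146 (minus) for Cd36, chr4:86670010-86670309 (minus) for Plin2, chr9:55512194-55512493 (minus) for Etfa, chr9:108661886-108662185 (plus) for Slc25a20 and chr17:24426433-24426732 (plus) for Eci1. The match of Fabp1 starts 67 bases before the transcription start, and that window is also the only member window with a TATAAA, which 13.6% of all windows hold. Fabp1 and Cd36 had 3 CpG dinucleotides each in their windows, against 21 for Etfa, 13 for Slc25a20, 15 for Eci1 and 10 for Plin2, and medians of 15 over member windows and 7 over all windows. The 5 members under 1 CPM in organoids that had a window held 3 to 30 CpG with a median of 12, and the 26 others 4 to 34 with a median of 15.5. A match of letters is a description and says nothing of binding in these cells.

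Activation and storage genes differed among themselves. Acsl1, the main long chain acyl-CoA synthetase of liver, was at 182 and 111 CPM in the TKO-tagged, 8.41 and 7.30 CPM in the Sox9-derived and 19.2 and 10.2 CPM in the Ck19-derived libraries. It was higher in the TKO-tagged libraries by a log2 fold change of 4.08 over Ck19-derived organoids (SE 0.50, edgeR adjusted p = 0.00701) and 5.03 over Sox9-derived organoids (SE 0.40, adjusted p = 0.0055). Plin2, which coats lipid droplets and whose window is printed above, was at 1539 and 955 CPM in the TKO-tagged, 285 and 144 CPM in the Sox9-derived and 278 and 199 CPM in the Ck19-derived libraries, so it was a well expressed gene in every library. Its log2 fold change was 3.15 over Ck19-derived (SE 0.42) and 3.35 over Sox9-derived organoids (SE 0.52), both called by edgeR. Acot1 and Acot2, thioesterases that release fatty acids from coenzyme A in the cytosol and in mitochondria, were not called in either comparison. Acot1 was at 2.91 and 34.9 CPM in the TKO-tagged, 47.7 and 51.7 CPM in the Sox9-derived and 12.9 and 11.2 CPM in the Ck19-derived libraries. The TKO-tagged libraries thus differed 11.99-fold from each other in Acot1, and 3.53-fold in Acot2. Both genes are near-identical copies on chromosome 12, and reads that fit both were dropped for low mapping quality, so their counts are uncertain.

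In the carnitine shuttle the entry enzyme had the largest estimate. Cpt1a, which makes the carnitine ester and is the rate-limiting step of mitochondrial oxidation, was at 100.5 and 108 CPM in the TKO-tagged, 26.2 and 23.7 CPM in the Sox9-derived and 22.7 and 8.86 CPM in the Ck19-derived libraries. It was higher by a log2 fold change of 3.47 over Ck19-derived (SE 0.53, edgeR adjusted p = 0.0123) and 2.86 over Sox9-derived organoids (SE 0.23, adjusted p = 0.00544). Slc25a20, the carrier that swaps the ester for free carnitine across the inner membrane, was at 83.8 and 81.8 CPM in the TKO-tagged, 60.7 and 54.1 CPM in the Sox9-derived and 42.0 and 43.4 CPM in the Ck19-derived libraries. Cpt2, which restores the acyl-CoA inside, was at 90.3 and 47.6 CPM in the TKO-tagged, 72.7 and 92.6 CPM in the Sox9-derived and 61.5 and 65.0 CPM in the Ck19-derived libraries. The groups overlapped in Cpt2, and it was not called in either comparison (edgeR adjusted p = 0.148 over Ck19-derived and 0.389 over Sox9-derived organoids). Crot, which exports medium chains from peroxisomes as carnitine esters, was called higher in both, by 2.43 (SE 0.36) over Ck19-derived and 1.92 (SE 0.37) over Sox9-derived organoids. With library totals alone the calls of Crot and Slc25a20 over the Sox9-derived organoids were lost.

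The acyl-CoA dehydrogenases take the first electrons from chains of different length, and 4 of 5 were called higher in both comparisons. Acadvl, Acadl, Acadm and Acads, for very long, long, medium and short chains, were higher in the TKO-tagged libraries by log2 fold changes of 1.55 to 2.10 over Ck19-derived and 1.37 to 2.03 over Sox9-derived organoids, all called by edgeR. The call of Acadl over the Sox9-derived organoids was lost with library totals alone. Acadm, the enzyme lost in medium chain dehydrogenase deficiency, was at 353 and 318 CPM in the TKO-tagged, 126 and 161 CPM in the Sox9-derived and 145 and 119 CPM in the Ck19-derived libraries. Acadsb, which acts on short branched chains from isoleucine, was at 24.6 and 22.4 CPM in the TKO-tagged, 29.7 and 33.9 CPM in the Sox9-derived and 23.8 and 25.6 CPM in the Ck19-derived libraries. Its estimate was 0.69 over Ck19-derived and 0.37 over Sox9-derived organoids with TMM, and −0.07 and −0.44 with library totals alone, and it was not called. Of the exon bases of Acadvl, 42.85% overlap Dvl2 on the other strand, and the counting ignored strand.

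The electron carriers that receive these electrons were called higher in both comparisons with TMM, and over the Sox9-derived organoids the calls of Etfb and Etfdh were lost with library totals alone. Etfa, a subunit of the electron transfer flavoprotein, was at 597 and 762 CPM in the TKO-tagged, 281 and 289.7 CPM in the Sox9-derived and 235 and 269 CPM in the Ck19-derived libraries. Its partner Etfb and the oxidoreductase Etfdh, which passes the electrons to ubiquinone, were called with it. The 3 genes had log2 fold changes of 1.83 to 2.19 over Ck19-derived and 1.59 to 2.05 over Sox9-derived organoids. Of the exon bases of Etfb, 58.25% lie in other annotated genes too.

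Among the later mitochondrial steps, the last thiolase stood apart from the rest. Acaa2, which splits off acetyl-CoA, was at 2745 and 1555 CPM in the TKO-tagged, 226 and 264 CPM in the Sox9-derived and 160 and 235 CPM in the Ck19-derived libraries. It was higher by log2 fold changes of 4.21 over Ck19-derived (SE 0.48, edgeR adjusted p = 0.00569) and 3.94 over Sox9-derived organoids (SE 0.45, adjusted p = 0.0121). The trifunctional protein subunits Hadha and Hadhb, whose starts lie 86 bases apart on chromosome 5 in the gene models of the count table, were higher by 1.36 (SE 0.22) and 1.91 (SE 0.25) over Ck19-derived organoids, and by 1.36 (SE 0.22) and 1.74 (SE 0.23) over Sox9-derived organoids. With library totals alone Hadha was not called in either comparison. Hadh, the dehydrogenase for medium and short chains, was higher by 2.32 (SE 0.29) over Ck19-derived and 2.19 (SE 0.32) over Sox9-derived organoids.

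The auxiliary enzymes for unsaturated chains had a median log2 fold change of 1.29 over Ck19-derived and 1.42 over Sox9-derived organoids. Decr1, a reductase for double bonds, was at 130 and 127 CPM in the TKO-tagged, 84.1 and 83.2 CPM in the Sox9-derived and 41.5 and 46.9 CPM in the Ck19-derived libraries, and was called higher in both comparisons, over the Sox9-derived organoids with TMM but not with library totals. The isomerase Eci1 was at 315 and 237 CPM in the TKO-tagged, 165 and 142 CPM in the Sox9-derived and 171 and 212 CPM in the Ck19-derived libraries. It was called higher over both, by 1.29 (SE 0.28) over Ck19-derived and 1.66 (SE 0.28) over Sox9-derived organoids, and both calls were lost with library totals alone. Its relative Eci2, at 76.4 and 133 CPM in the TKO-tagged libraries and 79.5 to 97.6 CPM in the organoids, was not called (edgeR adjusted p = 0.0749 over Ck19-derived and 0.0982 over Sox9-derived organoids).

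Peroxisomal members were uneven. Acaa1b, a thiolase abundant in liver, was at 384 and 505 CPM in the TKO-tagged, 15.2 and 7.57 CPM in the Sox9-derived and 42.8 and 26.4 CPM in the Ck19-derived libraries, whereas its near-identical copy Acaa1a was at 152 and 162 CPM in the TKO-tagged, 169 and 178 CPM in the Sox9-derived and 132 and 130.4 CPM in the Ck19-derived libraries. Acaa1b was higher by log2 fold changes of 4.43 over Ck19-derived (SE 0.39) and 6.08 over Sox9-derived organoids (SE 0.51). Acaa1a was called higher over the Ck19-derived organoids alone (1.01, SE 0.22, edgeR adjusted p = 0.0271), a call lost with library totals. The difference between these comparisons was not tested, and reads that fit both copies were dropped. Ehhadh, the bifunctional enzyme of the peroxisome, was at 82.5 and 34.6 CPM in the TKO-tagged, 2.16 and 12.1 CPM in the Sox9-derived and 1.44 and 0.03 CPM in the Ck19-derived libraries, and was not called over the Sox9-derived organoids (3.85, SE 1.02, edgeR adjusted p = 0.062). Pex11a, which helps peroxisomes divide, was called over the Ck19-derived organoids (2.38, SE 0.32, adjusted p = 0.0091) and not over the Sox9-derived (1.11, SE 0.45, adjusted p = 0.156). The difference between the comparisons of Pex11a was not tested.

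Bdh1 (chromosome 16, 31422280 to 31458901, GRCm38, plus strand), which converts the ketone bodies acetoacetate and β-hydroxybutyrate into each other, was at 501 and 202 CPM in the TKO-tagged, 9.92 and 5.10 CPM in the Sox9-derived and 4.20 and 6.11 CPM in the Ck19-derived libraries. It was higher by log2 fold changes of 6.87 (SE 0.65, edgeR adjusted p = 0.00367) over Ck19-derived and 6.37 (SE 0.74, adjusted p = 0.0126) over Sox9-derived organoids. Pdk4, a kinase that shuts off pyruvate oxidation in fasting, was at 27.2 and 8.53 CPM in the TKO-tagged libraries, with 2 fragments in the Sox9-derived and 4 in the Ck19-derived pair, too few there to pass the count filter. Vnn1, a pantetheinase, was at 111 and 57.8 CPM in the TKO-tagged, 52.9 and 76.5 CPM in the Sox9-derived and 119.6 and 122 CPM in the Ck19-derived libraries, with no call in either comparison (edgeR adjusted p = 0.665 over Ck19-derived and 0.127 over Sox9-derived organoids). The TKO-tagged values of Vnn1 lay among those of the organoids.

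On a length-scaled scale (FPKM, CPM per kilobase of exon, computed here) the order of the members also differed. Fabp1 led in the TKO-tagged libraries with levels of 8832 and 4899 FPKM, followed by Acaa2 with 1812 and 1026 FPKM, then Etfa with 325 and 415 FPKM and Plin2 with 438 and 272 FPKM, and the last pair overlapped each other. In the Sox9-derived libraries Acaa2 had levels of 149 and 174 FPKM, Etfa of 153 and 158 FPKM, Eci1 of 151 and 130.2 FPKM and Acadl of 136 and 134 FPKM. In the Ck19-derived libraries Eci1 had levels of 157 and 194 FPKM, Etfa of 128 and 146 FPKM and Acaa2 of 106 and 155 FPKM. Within the Sox9-derived pair Acaa2 overlapped Etfa and Eci1, and Eci1 overlapped Acadl. Within the Ck19-derived pair Eci1 lay above Etfa and Acaa2 in both libraries by little.

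Sox9-derived and Ck19-derived organoids, which the labels separate by the origin of the culture alone, were much closer in these genes. Of the 35 members, 30 passed the count filter and 0 were called by edgeR, where 0.570% of 16653 tested genes were called in either direction. An unadjusted p under 0.05 was reached by 9 of the 30 members and by 2792 of the 16653 genes. limma-voom called 0 members. DESeq2 called 1512 genes, 649 higher and 863 lower, and 7 members, of which Acadl, Acot1, Decr1 and Pex11a were higher and Acaa1b, Ppara and Vnn1 lower in the Sox9-derived organoids. The median log2 fold change of the tested members was 0.25, against 0.01 over all tested genes. In both Sox9-derived libraries 14 members were above both Ck19-derived libraries and 9 were below, with no floor on fragments. Of 21119 genes with at least 10 fragments in the organoids, 21.3% and 27.9% were above and below in this way. Slc27a2 and Slc27a5, among the 9 below, each had 1 fragment in the Sox9-derived and 7 in the Ck19-derived pair, under that floor. Without Sox9-derived replicate 1 or 2, edgeR called 3 and 2 members among 1394 and 975 genes, and without either Ck19-derived replicate 0 members and 0 genes.

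**Figure D4:**
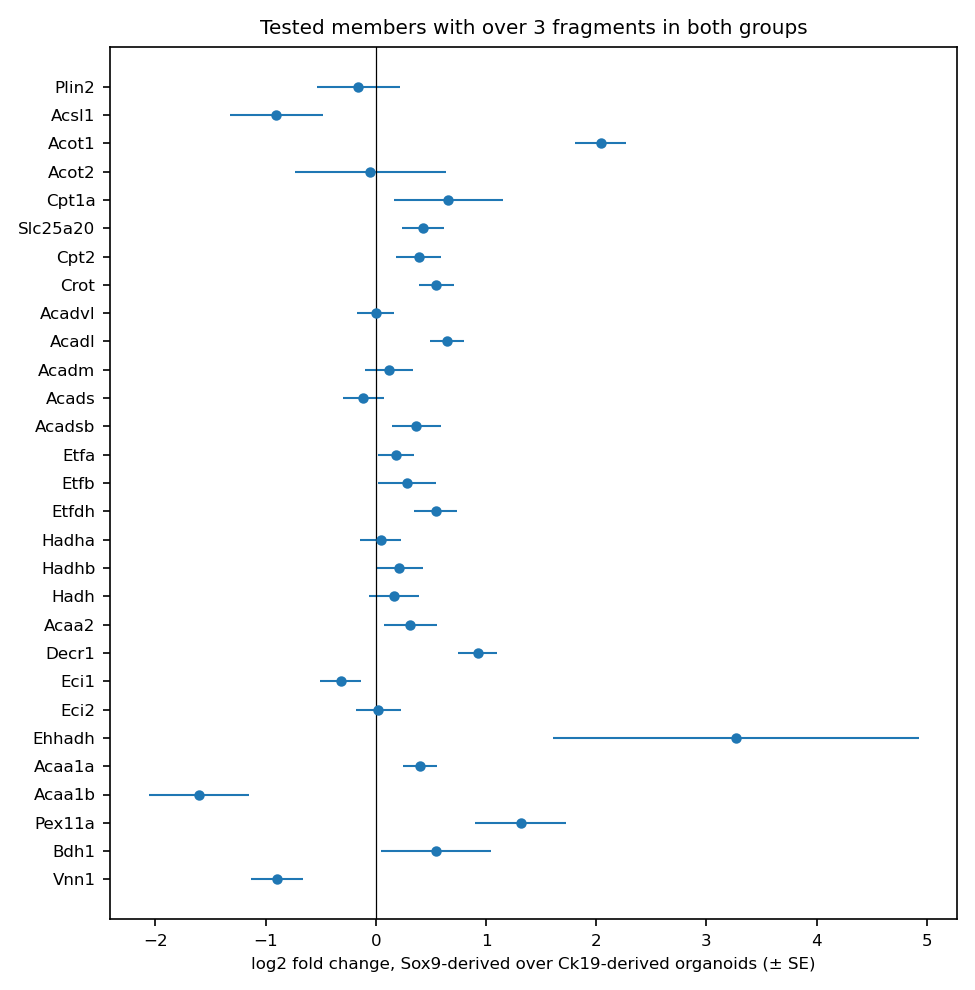
log2 fold change with its standard error, Sox9-derived over Ck19-derived organoids, for the 29 tested members with over 3 fragments in both groups. Most estimates lie within 1 of 0; Acot1, Ehhadh and Pex11a lie above 1 and Acaa1b below −1.

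Acot1 came nearest to the threshold, at 47.7 and 51.7 CPM in the Sox9-derived and 12.9 and 11.2 CPM in the Ck19-derived organoids (log2 fold change 2.04, SE 0.23, edgeR adjusted p = 0.0517). Its values did not overlap between the pairs, and its copy Acot2 was at 2.21 and 7.69 CPM in the Sox9-derived and 4.99 and 5.31 CPM in the Ck19-derived organoids. Ppara had 0 fragments in the Sox9-derived and 56 in the Ck19-derived pair, at least 20.1-fold lower with the floor of 3 fragments (edgeR adjusted p = 0.109). Decr1 had an estimate of 0.92 (SE 0.18, adjusted p = 0.113) and Acadl of 0.65 (SE 0.16, adjusted p = 0.154). Acaa1b had −1.60 (SE 0.46, adjusted p = 0.193) and Vnn1 −0.90 (SE 0.24, adjusted p = 0.167). The 4 carnitine shuttle genes had estimates of 0.39 to 0.66 and the 5 dehydrogenases of −0.11 to 0.65. Cd36, Slc27a2, Slc27a5, Fabp1 and Pdk4 were too low to test, with at most 16 fragments in a pair.

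Lists of neighbouring pathways are described beside the shares over all tested genes. Those were 15.0% called higher and 14.0% lower over Ck19-derived, and 13.3% and 9.02% over Sox9-derived organoids. The list counts include genes that passed the count filter through the TKO-tagged or the organoid pair alone and so had to differ. Their calls are not read as a result. Such genes include Abcd2, Acot4, Acsm5, Angptl4, Fgf21, Fabp4, Creb3l3, G0s2 and Mgll (TKO-tagged) and Hmgcll1 and Ucp3 (organoids). Over the Sox9-derived organoids Acsm3, Ephx2 and Thrsp also passed through the TKO-tagged pair alone. Among 10 ketone body genes, 6 were higher and 2 lower in the TKO-tagged libraries than in the Ck19-derived organoids, and 5 higher and 2 lower than in the Sox9-derived. Slc16a6 and Slc16a7, monocarboxylate carriers, and Bdh2 were among the genes called higher. The genes called lower were Oxct1, with which other tissues use ketone bodies, at 18.8 and 39.8 CPM in the TKO-tagged libraries and 171 to 207 CPM in the organoids, and Hmgcll1, a relative of the ketogenic lyase, with 1 fragment in each TKO-tagged library. The member Bdh1 therefore moved opposite to Oxct1. With library totals alone 6 ketone body genes were higher and 3 lower over Ck19-derived, and 4 and 3 over Sox9-derived organoids.

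Of 34 further peroxisomal genes, 19 were higher and 0 lower over the Ck19-derived organoids and 16 higher and 0 lower over the Sox9-derived. With library totals alone these counts were 14 higher and 3 lower, and 13 higher and 1 lower. The largest estimates were those of Abcd2, Ephx2 and Acot4. Their calls over the Sox9-derived organoids are all among those set aside above, and over the Ck19-derived organoids those of Abcd2 and Acot4 are. Other mitochondrial oxidation genes had 12 higher and 2 lower of 25 tested over Ck19-derived, and 9 and 2 over Sox9-derived organoids, which became 4 and 2, and 5 and 2, with library totals alone. Acsm5, a medium chain synthetase, was at 27.0 and 60.1 CPM in the TKO-tagged and at most 0.06 CPM in any organoid library, whereas Cpt1c, the brain form of the shuttle enzyme, was at 2.80 and 1.56 CPM in the TKO-tagged and 50.9 to 108 CPM in the organoid libraries. Hibch, Acad11 and Ivd were among those called higher and Acsl3 among those called lower. The call of Acsm3 over the Sox9-derived organoids is among those set aside above. Among 32 PPAR regulators and other PPARA targets, 13 were higher and 5 lower over Ck19-derived, and 13 and 2 over Sox9-derived organoids. With library totals alone these became 12 and 6, and 11 and 5. Angptl4, a lipase inhibitor, was at 396 and 387 CPM in the TKO-tagged and at most 0.68 CPM in any organoid library. The hormone Fgf21 was at 145 and 56.2 CPM in the TKO-tagged and at most 0.41 CPM in any organoid library, and Fabp4 and Creb3l3 were also among those called higher. The kinases Pdk1 and Pdk3 were called lower, at 8.69 and 3.54 CPM and 2.01 and 2.97 CPM in the TKO-tagged libraries against 87.4 to 208 CPM and 56.4 to 77.5 CPM in the organoids, opposite to the member Pdk4. Ucp3 was called lower over Ck19-derived organoids with at most 0.34 CPM in any library.

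Genes of fat storage and synthesis were also called, in both directions. Of the lipid droplet list, 9 were higher and 1 lower over Ck19-derived and 8 and 0 over Sox9-derived organoids, with G0s2, Hsd17b13 and Mgll leading and Cidea lower. With library totals alone the counts were 8 and 2, and 7 and 0. Of the synthesis list, 12 were higher and 2 lower over Ck19-derived and 13 and 1 over Sox9-derived organoids, against 9 and 5, and 8 and 4, with library totals alone. Scd1, the stearoyl-CoA desaturase, was at 338 and 265 CPM in the TKO-tagged, 6.23 and 6.76 CPM in the Sox9-derived and 36.2 and 19.9 CPM in the Ck19-derived libraries. Mlxipl and, over Ck19-derived organoids, Thrsp were called with it, while Me1 and, over Ck19-derived organoids, Scd2 were called lower. The call of Thrsp over the Sox9-derived organoids is among those set aside above. Of 16 hypoxia genes 0 were higher and 11 lower over Ck19-derived, and 6 lower over Sox9-derived organoids, with Car9 at 0.94 and 0.89 CPM in the TKO-tagged and 137 to 656 CPM in the organoid libraries and Egln3, P4ha2 and Ankrd37 also called lower.

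The general mitochondrial lists also depended on scaling. Of 24 nuclear respiratory chain genes, 15 were called higher over Ck19-derived and 11 over Sox9-derived organoids with TMM, but 0 and 2 with library totals alone. Of 21 TCA cycle genes 10 and 6 were called higher with TMM, and 4 and 3 higher and 2 and 2 lower with library totals. Suclg1, Suclg2, Pcx and Idh3b of the cycle and Cyc1, Atp5b, Atp5a1, Uqcrfs1 and Ndufa9 of the chain were among those called with TMM. Atp5b was at 4667 and 3579 CPM in the TKO-tagged, 2564 and 2757 CPM in the Sox9-derived and 2322 and 2610 CPM in the Ck19-derived libraries.

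**Figure D5:**
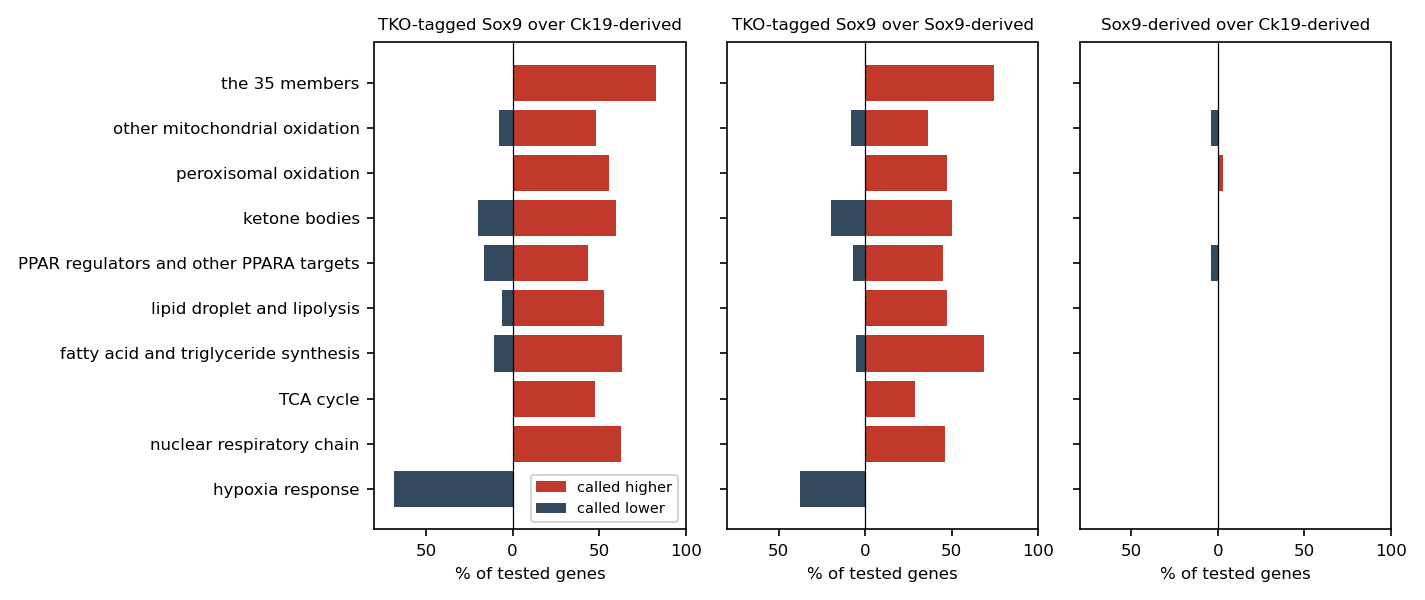
Share of tested genes called higher (red, right of 0) or lower (dark, left of 0) by edgeR with TMM in the members and 9 other lists, for 3 comparisons. The members have 29 of 35 called higher over Ck19-derived and 26 of 35 over Sox9-derived organoids, the hypoxia list has calls only to the left, and the organoids differ from each other in 3 listed genes. Each member count includes 6 that passed the count filter only through the TKO-tagged pair and so had to differ. Of the other 29 members, 23 and 20 were called higher. The other lists also include such genes.

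Between the organoid pairs, 3 genes of these 9 lists were called. Acox2, the peroxisomal oxidase for branched chains and bile acid precursors, was higher in the Sox9-derived organoids, at 354 and 325 CPM against 55.1 and 48.8 CPM in the Ck19-derived (log2 fold change 2.71, SE 0.18, edgeR adjusted p = 0.0358). Acsm3 and Cyp4a12a were lower: Acsm3 was at 0.03 and 0 CPM in the Sox9-derived and 9.69 and 19.6 CPM in the Ck19-derived libraries, and Cyp4a12a, a fatty acid hydroxylase more active in male mouse liver, at 0.49 and 0.45 CPM in the Sox9-derived and 15.2 and 18.6 CPM in the Ck19-derived organoids. Acsm3 passed the count filter through the Ck19-derived pair alone, so its call is not read as a result. Sex differs between these pairs, and Cyp4a12a was higher in the Ck19-derived pair, the one with Xist. The part of sex in these values was not tested.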

How the data were processed

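The authors deposited raw counts of fragments per gene, made by featureCounts (v1.5.0-p3) from the GRCm38 gene models of Ensembl 87, per the file headers: both ends mapped, primary alignments, mapping quality of at least 10, strand not used. Alignment with STAR 2.5.4b is listed in the submitters' processing notes. Columns were tied to samples by name, and 4 columns that matched no label were not used. In counting, 0 fragments were set aside as duplicates, which does not show whether duplicates were present or removed earlier. Counting intervals and floors therefore cover counting error only.

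Counts were filtered with filterByExpr (minimum count 10), scaled by TMM and tested two-sided by quasi-likelihood F tests (edgeR 4.0.16, R 4.3.3) over all genes, with a Benjamini-Hochberg threshold of 0.05, separately for each pair of groups. CPM are on library totals over all 49585 genes. limma 3.58.1 and DESeq2 1.42.0 served as alternatives. The comparisons with the TKO-tagged columns as groups of their own were added after seeing the data. Members and lists were chosen with earlier results of these data known. All 35 members are named. From each other list the up to 3 called genes with the largest change in each direction are named, or, with no call, up to 2 of the highest mean CPM, and from marker lists the 3 of highest mean CPM, as the rule, of which the text prints those that bear on the members; further genes named (Epcam, Krt19, marker genes at 0) were picked after their values were seen. Proteins are not used here.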

Additional observations from a re-analysis of the deposited data

How the results depend on the processing

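Limits come first: each group had 2 libraries, and a fit without 1 of them estimates the spread from the other pair. In Sox9-derived over Ck19-derived organoids (95 genes, 0 members, member median 0.25 and 3 genes of other lists called), DESeq2 called 1512 genes, 7 members and 18 list genes, no count filter gave 506, 1 and 11, and at least 1 CPM in 2 libraries gave 173 genes and 1 member. Leaving out 1 library gave 0 to 1394 genes, 0 to 3 members, a median of 0.13 to 0.36 and 0 to 23 list genes. With the TKO-tagged columns in place of the Sox9-derived ones these became 5190, 29, 2.19 and 118.

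Same-numbered libraries hardly deviated together (correlations of deviations 0.080, 0.074 and 0.069 in the organoid, TKO-tagged over Ck19-derived and TKO-tagged over Sox9-derived comparisons), so the replicate number is taken as a label, not a pairing. With the replicate block 0 genes and 0 list genes were called between the organoids, 3319 genes over Ck19-derived organoids, and 1214 genes, 14 members and 48 list genes over Sox9-derived organoids.

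TKO-tagged over Ck19-derived (5190 genes, 29 members, median 2.19, 118 list genes): leaving out 1 library gave 881 to 6976 genes, 6 to 32 members, a median of 2.13 to 2.28 and 31 to 131 list genes, with the lowest counts without a Ck19-derived library. The median was 1.44 with library totals and 2.26 with no count filter. Member counts and medians of both TKO-tagged comparisons include 6 members that passed the count filter only through the TKO-tagged pair. Without those 6, the main fits called 23 of 29 members over Ck19-derived and 20 of 29 over Sox9-derived organoids. Their medians were 2.10 and 1.71. TKO-tagged over Sox9-derived (3876, 26, 2.03 and 93): library totals gave 5866 genes and a median of 1.23, DESeq2 5928 genes, and leaving out 1 library 848 to 2026 genes, 7 to 23 members, a median of 1.84 to 2.06 and 31 to 68 list genes.

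Some log2 fold changes that were not called changed sign. Between the organoids, leaving out 1 library gave ranges of −0.092 to 0.097 for Acadvl, −0.13 to 0.18 for Eci2, −0.72 to 0.25 for Plin2, −0.072 to 0.166 for Hadha, −0.072 to 0.304 for Acadm, −1.22 to 0.60 for Acot2 and −0.075 to 0.387 for Hadh. With no count filter Acadvl was at 0.011, and with at least 1 CPM in 2 libraries Eci2 was at −0.0046. The TKO-tagged columns in place of the Sox9-derived ones gave 1.98 for Acadvl, 3.15 for Plin2, 2.18 for Acot2, 6.23 for Ppara, 4.08 for Acsl1, 1.55 for Acads, 1.29 for Eci1, 4.43 for Acaa1b and 0.25 for Vnn1. Over Ck19-derived organoids library totals gave −0.070 for Acadsb and −0.52 for Vnn1, and leaving out 1 library −0.32 to 0.73 for Vnn1 and −1.20 to 2.28 for Acot1. Over Sox9-derived organoids library totals gave −0.26 for Cpt2, −0.44 for Acadsb and −0.15 for Acaa1a, and leaving out 1 library −0.020 to 1.00 for Cpt2 and −3.22 to 0.26 for Acot1. The cause of these shifts was not tested.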
